A study of Mus musculus with 11 samples.

Results

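The genes described here are 10 members of the transforming growth factor beta (TGF-beta) pathway measured in a mouse leukaemia line. They comprise the ligand genes Tgfb1 and Tgfb3, the receptor genes Tgfbr1 and Tgfbr2, the signal transducer genes Smad2, Smad3 and Smad4, the inhibitor gene Smad7, and the corepressor genes Ski and Skil. They were listed by name, and all 10 were found, each with 1 probe set, among 22180 genes with a measured level. The set was assembled because Tgfb3 was lower after the compound AI-9-54 than after both other compounds, so the Tgfb3 differences that involve AI-9-54 are given as a description with no test.

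Levels came from single-colour expression arrays of 11 samples of the T-cell acute lymphoblastic leukaemia line 720. Per the labels, the line derives from a mouse with 1 disrupted Tcf12 copy (Tcf12+/-) and expresses a Tal1 transgene from the Lck promoter, a background that all groups share. Cultures received AI-9-54 at 50 µM (4 arrays, replicates 1 to 4), AI-8-45 at 100 µM (4 arrays, replicates 1 to 4) or AI-7-54 at 100 µM (3 arrays, replicates 1, 3 and 4) for 8 h. The labels describe them as inhibitors of the Runt domain, through which RUNX transcription factors bind DNA, and give the compounds as code names only. Vehicle-treated cells were not analysed here, and each difference sets a compound against another. The AI-9-54 dose differed from that of both other compounds, and in comparisons with AI-9-54 compound and dose cannot be told apart. The samples are all of 1 cell line, and the labels do not say whether replicates were separate cultures, so the p-values rest on a spread between arrays that may be technical.

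TGF-beta is secreted in a latent form and, once released, binds a type II receptor (TGFBR2) that recruits and phosphorylates a type I receptor (TGFBR1). The activated complex phosphorylates SMAD2 and SMAD3, which join SMAD4, enter the nucleus and bind DNA with partner factors, RUNX proteins among them. Smad7 and Skil are themselves induced by this signal and damp it, Smad7 at the receptor and Skil, with its relative Ski, on the target genes. In T cells the pathway restrains proliferation and effector differentiation and takes part in thymocyte and regulatory T-cell development.

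Values are log2 levels, and array medians lay between 6.61 and 6.68. Of 10 measured T-lineage markers the median level was 9.92, at percentile 83.7 of all genes. Their mean level per array was 9.30 to 9.51 after AI-9-54, 9.56 to 9.75 after AI-8-45 and 9.74 to 9.95 after AI-7-54, and 5 of the 10 (Cd2, Cd5, Thy1, Ptcra and Dntt) were lower with AI-9-54 than with AI-7-54, beside 7.29% of all genes. Thy1 and Dntt were also lower than after AI-8-45 (2 of 10, beside 0.6%), and Cd5 was lower after AI-8-45 than after AI-7-54 (1 of 10, beside 3.53%). The part of these markers in the differences below was not tested. Among these, Cd4 and Cd8a lay below the array medians (group means of 6.16 to 6.26 for Cd4 and of 5.61 to 5.72 for Cd8a). Of 17 measured markers of other lineages, the smooth muscle actin gene Acta2 alone passed limma's test, between AI-9-54 and AI-7-54 (log2 difference -0.21, adjusted p 0.0322). That is 1 of 17, beside 14.2% of all genes. The median level lay at percentile 36.3 of all genes for B-lineage and 39.5 for myeloid markers. For the 2 erythroid markers it lay at percentile 56.1, and for stromal and endothelial markers at 60.5, so these were not all dim. Replicates 1 and 2 separated from replicates 3 and 4 within the groups. Between arrays of different groups and different pairs of replicates, deviations from the group mean correlated at r -0.48 to 0.01. The main fit leaves this split out, and AI-7-54 has 1 array in replicates 1 and 2. Values within each pair of replicates are therefore given beside many of the results, and a fit with the pair as a factor is among the alternatives. What gave rise to the split was not tested. In such bulk samples fewer cells of a type and less RNA per cell cannot be told apart.

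Smad7 was the one gene of the set that passed limma's test in every comparison. It was highest after AI-9-54, intermediate after AI-8-45 and lowest after AI-7-54, and no array of any group reached the range of another. Tgfb3 was lowest after AI-9-54, while AI-8-45 and AI-7-54 gave overlapping Tgfb3 levels. Smad4 and Tgfbr1 were slightly higher with AI-9-54 than with AI-7-54, and Tgfb1, Tgfbr2, Smad2, Smad3, Ski and Skil did not pass the test in any comparison.

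**Figure D1:**
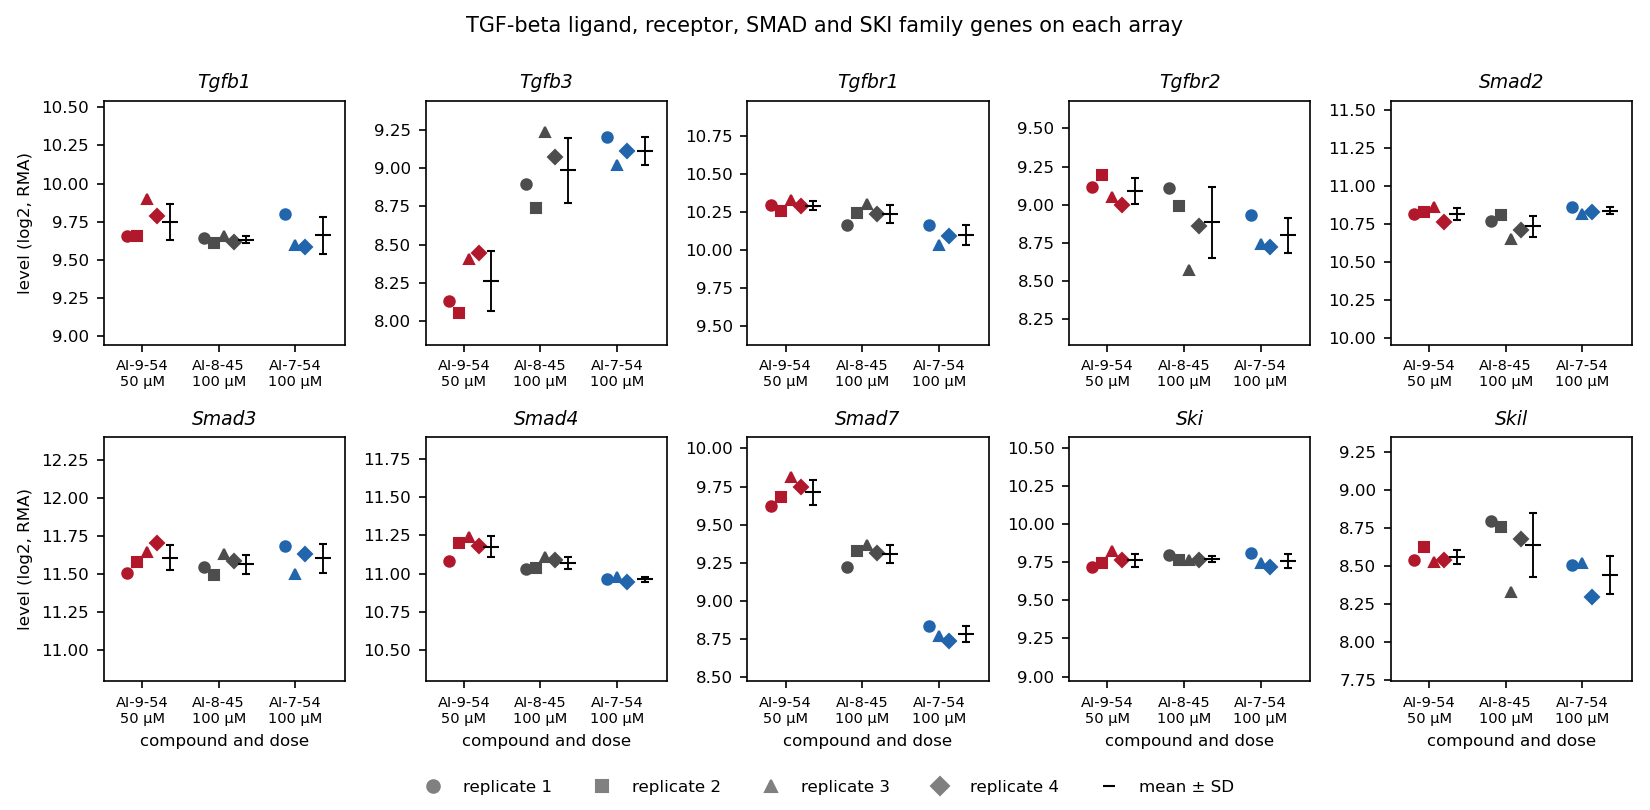
Log2 level (vertical axis, each panel with its own range) of each of the 10 genes on every array, by compound and dose. Points are arrays, marked by replicate number, and the bar beside them is the mean ± SD (n = 4, 4 and 3); the Smad7 groups are stepped with no overlap, and all 4 AI-9-54 arrays of Tgfb3 lie below the other 7.

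Tgfb3 (probe set 17282743) encodes 1 of the mammalian TGF-beta ligands. Its level was 8.13, 8.05, 8.41 and 8.45 on the AI-9-54 arrays, 8.90, 8.74, 9.24 and 9.07 on the AI-8-45 arrays, and 9.21, 9.02 and 9.11 on the AI-7-54 arrays (replicates in the order given above). The highest AI-9-54 array lay below the lowest array of either other compound. Group means were 8.26 ± 0.20 after AI-9-54, 8.99 ± 0.21 after AI-8-45 and 9.11 ± 0.09 after AI-7-54 (SD, n = 4, 4 and 3). The level after AI-9-54 was 1.81-fold lower than after AI-7-54 (log2 difference -0.85) and 1.66-fold lower than after AI-8-45 (-0.73), the 2 differences for which the gene was picked.

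The size of the Tgfb3 difference depended on the replicates. Between AI-9-54 and AI-7-54 it was -1.12 in replicates 1 and 2 and -0.64 in replicates 3 and 4. Between AI-9-54 and AI-8-45 it was -0.73 within either pair of replicates. In both groups of 4 arrays, replicates 1 and 2 were lower than replicates 3 and 4, whereas the single AI-7-54 array of replicates 1 and 2 was the highest of its group. The comparison at equal dose was not used to pick the gene, and there Tgfb3 did not pass limma's test (AI-8-45 minus AI-7-54, log2 difference -0.13, 95% interval -0.39 to 0.13, adjusted p 0.715). Its sign also turned within replicates 3 and 4 (0.09).

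The 5 genes whose levels followed Tgfb3 most closely over the 11 arrays, among 10209 named genes above the median level, were Ubald1 (Pearson r 0.968), Slc9a3r1 (0.959), Tma7 (0.958), H2ac21 (0.957) and Cenpv (0.954). Leaving out 1 array kept each r at 0.938 or above. All 5 had their lowest mean after AI-9-54, which their choice by correlation with Tgfb3 all but fixed. Ubald1, for example, averaged 10.31 after AI-9-54, 10.61 after AI-8-45 and 10.61 after AI-7-54. These arrays fall into 3 groups and share the replicate pattern, so the correlations describe these arrays and carry no test.

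Tgfb1 (probe set 17475342), the main TGF-beta ligand gene of lymphocytes, did not share the Tgfb3 pattern. Its level was 9.65, 9.66, 9.90 and 9.78 after AI-9-54, 9.64, 9.61, 9.66 and 9.62 after AI-8-45, and 9.80, 9.60 and 9.59 after AI-7-54. The 3 groups overlapped. The difference was 0.09 between AI-9-54 and AI-7-54 (95% interval -0.06 to 0.24, limma adjusted p 0.511), 0.12 between AI-9-54 and AI-8-45 (-0.02 to 0.25, adjusted p 0.524) and -0.03 between AI-8-45 and AI-7-54 (-0.18 to 0.12, adjusted p 0.927). The first of these was -0.14 in replicates 1 and 2 but 0.25 in replicates 3 and 4 (adjusted p 0.282 and 0.0474), so its direction turned with the replicates.

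Among the receptors, Tgfbr1 (probe set 17413915), the kinase that phosphorylates SMAD2 and SMAD3, read 10.30, 10.26, 10.33 and 10.29 after AI-9-54, 10.16, 10.24, 10.30 and 10.24 after AI-8-45, and 10.17, 10.03 and 10.09 after AI-7-54. Every AI-9-54 array lay above every AI-7-54 array, and AI-8-45 overlapped both. Tgfbr1 was 1.14-fold higher with AI-9-54 than with AI-7-54 (log2 difference 0.19 ± 0.05, SE, limma adjusted p 0.0145). It missed the threshold when AI-7-54 replicate 3 (0.16, adjusted p 0.0785) or AI-7-54 replicate 4 (0.19, adjusted p 0.0563) was left out, and the difference was 0.11 in replicates 1 and 2 and 0.24 in replicates 3 and 4. Between AI-8-45 and AI-7-54 it was 0.14 (95% interval 0.04 to 0.24, adjusted p 0.119), and between AI-9-54 and AI-8-45 0.05 (-0.04 to 0.15, adjusted p 0.718).

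Because the compounds are described as acting on the Runt domain, the 250 bases before the annotated starts were searched for the RUNX core letters TGTGGT and TGCGGT and, for the other strand, ACCACA and ACCGCA. Sequences came from a RefSeq table of build GRCm38.p6, which matched 5 of the 10 genes (Tgfb1, Tgfbr1, Tgfbr2, Smad3 and Ski) with 6 start windows. None of the 6 windows held the letters, against 18.6% of the 32851 windows in the table, and 5 of 17 windows (29.4%) of the other pathway genes named here did. Tgfbr1 was the only gene of the set that passed a test and had a window, and the activin type II receptor gene Acvr2a, which also passed in 2 comparisons (below), is shown beside it because its window held 1 match, a choice made after the matches were seen. The windows lie at chr4:47352972-47353221 (Tgfbr1, plus strand) and chr2:48813859-48814108 (Acvr2a, plus strand), directly upstream of the annotated start, 5′ to 3′, with the matching letters in capitals.
Tgfbr1: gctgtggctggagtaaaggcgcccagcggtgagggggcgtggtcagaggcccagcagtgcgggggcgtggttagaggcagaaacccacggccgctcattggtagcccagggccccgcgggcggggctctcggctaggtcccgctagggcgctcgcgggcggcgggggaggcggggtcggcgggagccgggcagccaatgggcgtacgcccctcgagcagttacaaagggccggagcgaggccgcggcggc
Acvr2a: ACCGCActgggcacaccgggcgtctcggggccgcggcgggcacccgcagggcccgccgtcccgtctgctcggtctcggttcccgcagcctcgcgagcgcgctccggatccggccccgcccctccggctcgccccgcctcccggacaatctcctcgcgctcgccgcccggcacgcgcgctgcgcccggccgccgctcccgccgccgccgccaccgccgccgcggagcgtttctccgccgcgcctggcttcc
A match describes letters, not a bound site, and a window without one says only that these letters are not in it.

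Tgfbr2 (probe set 17531987), the ligand-binding receptor gene, had levels of 9.12, 9.19, 9.05 and 9.0 after AI-9-54, 9.11, 8.99, 8.57 and 8.86 after AI-8-45, and 8.93, 8.74 and 8.72 after AI-7-54. All AI-9-54 arrays exceeded all AI-7-54 arrays, and the AI-8-45 arrays spread over both ranges. The difference between AI-9-54 and AI-7-54 was larger than that of Tgfbr1 but also more variable, and missed the threshold (0.29, 95% interval 0.06 to 0.52, limma adjusted p 0.0984). It passed without AI-8-45 replicate 3, the lowest array of all (0.29, adjusted p 0.0213), with the pair of replicates as a factor (0.25, adjusted p 0.0264), with weights per array (0.31, adjusted p 0.0379) and in a fit to both groups alone (0.29, adjusted p 0.0249). Over all 22 alternatives the adjusted p ran from 0.0213 to 0.281. The difference was 0.21 between AI-9-54 and AI-8-45 (-0.01 to 0.42, adjusted p 0.455) and 0.08 between AI-8-45 and AI-7-54 (-0.15 to 0.31, adjusted p 0.807).

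The receptor-activated SMAD genes Smad2 and Smad3 passed in no comparison, with differences between -0.10 and 0.08. Smad2 (probe set 17351886) read 10.82, 10.83, 10.86 and 10.76 after AI-9-54, 10.77, 10.81, 10.65 and 10.71 after AI-8-45, and 10.86, 10.82 and 10.83 after AI-7-54. All 4 AI-8-45 arrays lay below the 3 AI-7-54 arrays, by a mean of -0.10 (95% interval -0.20 to -0.00070, limma adjusted p 0.295). Smad3 (probe set 17528111), whose product binds DNA directly, read 11.51, 11.58, 11.64 and 11.70 after AI-9-54, 11.55, 11.49, 11.63 and 11.59 after AI-8-45, and 11.68, 11.50 and 11.63 after AI-7-54. Its 3 groups overlapped fully, and the 95% intervals of its differences ran from -0.17 at the lowest to 0.16 at the highest over the 3 comparisons (adjusted p 0.848 to 0.98). Within replicates 1 and 2, Smad3 was lower with AI-9-54 than with AI-7-54 (-0.14, adjusted p 0.34), and within replicates 3 and 4 it was higher (0.11).

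Smad4 (probe set 17355366), the partner shared by TGF-beta and bone morphogenetic protein (BMP) signals, had levels of 11.08, 11.20, 11.24 and 11.18 after AI-9-54, 11.03, 11.04, 11.11 and 11.09 after AI-8-45, and 10.96, 10.98 and 10.95 after AI-7-54. AI-7-54 gave the lowest levels without overlap with either compound, and AI-9-54 and AI-8-45 overlapped. Smad4 was 1.16-fold higher with AI-9-54 than with AI-7-54 (log2 difference 0.21 ± 0.05, SE, limma adjusted p 0.00768). The call held with any single array left out (0.19 to 0.25, adjusted p up to 0.0364), and the difference was 0.18 in replicates 1 and 2 and 0.25 in replicates 3 and 4. The steps through AI-8-45 missed the threshold, at 0.10 for AI-8-45 minus AI-7-54 (0.0044 to 0.20, adjusted p 0.271) and 0.11 for AI-9-54 minus AI-8-45 (0.02 to 0.20, adjusted p 0.322).

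Smad7 (probe set 17351862) encodes the inhibitory SMAD that occupies the type I receptor and brings ubiquitin ligases to it. Its level was 9.62, 9.68, 9.81 and 9.75 after AI-9-54, 9.22, 9.33, 9.37 and 9.31 after AI-8-45, and 8.84, 8.77 and 8.74 after AI-7-54. The gap between neighbouring groups exceeded the range within any group, with means of 9.71 ± 0.08, 9.31 ± 0.06 and 8.78 ± 0.05 in the same order (SD, n = 4, 4 and 3). At equal dose, Smad7 was 1.44-fold higher after AI-8-45 than after AI-7-54 (log2 difference 0.52, 95% interval 0.41 to 0.64, limma adjusted p 0.000189). After AI-9-54 it was 1.91-fold higher than after AI-7-54 (0.93, 0.81 to 1.05, adjusted p 9.54e-07) and 1.33-fold higher than after AI-8-45 (0.41, 0.30 to 0.52, adjusted p 0.00175).

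The Smad7 differences held with any single array left out, with adjusted p up to 0.00214 for AI-8-45 against AI-7-54, up to 1.93e-05 for AI-9-54 against AI-7-54 and up to 0.00842 for AI-9-54 against AI-8-45. Within replicates 1 and 2 and within replicates 3 and 4 they were 0.44 and 0.58 between AI-8-45 and AI-7-54, 0.81 and 1.02 between AI-9-54 and AI-7-54, and 0.38 and 0.44 between AI-9-54 and AI-8-45. Within replicates 1 and 2, which leave AI-7-54 with 1 array, the comparisons with AI-8-45 missed the threshold (adjusted p 0.195 against AI-7-54 and 0.177 for AI-9-54). Of all genes, 107 (0.482%) passed in all 3 comparisons, and 57 (0.257%) did so in the order seen for Smad7. The comparisons share arrays pairwise, so passing in 1 of them is not independent of passing in another.

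The corepressor genes did not follow Smad7. Ski (probe set 17433743) had the narrowest range of levels in the set, with 9.72, 9.74, 9.82 and 9.76 after AI-9-54, 9.80, 9.76, 9.76 and 9.76 after AI-8-45, and 9.81, 9.74 and 9.72 after AI-7-54. Its 95% intervals stayed between -0.09 and 0.11 over the 3 comparisons (limma adjusted p 0.937 to 0.973). Skil (probe set 17396638), which like Smad7 is an induced inhibitor of the pathway, read 8.54, 8.63, 8.53 and 8.54 after AI-9-54, 8.79, 8.75, 8.33 and 8.68 after AI-8-45, and 8.51, 8.52 and 8.30 after AI-7-54. AI-9-54 lay just above AI-7-54 without overlap, but the difference was small (0.12, -0.09 to 0.33, adjusted p 0.549), and that between AI-9-54 and AI-8-45 was -0.08 (-0.27 to 0.12, adjusted p 0.826). Between AI-8-45 and AI-7-54 Skil differed by 0.20 (-0.01 to 0.41, adjusted p 0.341), and this passed without AI-8-45 replicate 3, the lowest Skil array of its group (0.30, adjusted p 0.0233).

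**Figure D2:**
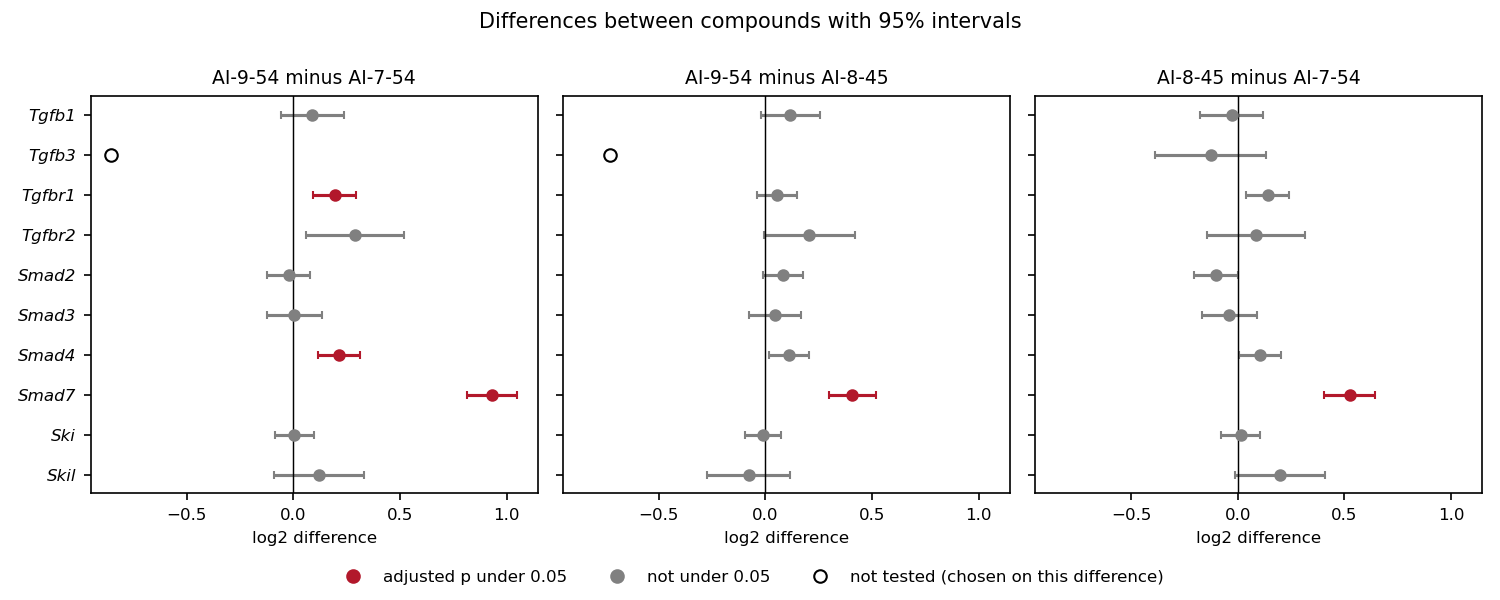
Log2 difference between compounds (horizontal axis) for each of the 10 genes (vertical axis), 1 panel per comparison. Tested differences have 95% intervals from the limma fit. Red marks an adjusted p under 0.05, and open circles without an interval mark the Tgfb3 differences that were not tested. Smad7 is red in all 3 panels, from 0.41 to 0.93, and Smad4 and Tgfbr1 are red only between AI-9-54 and AI-7-54.

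Counted over the set, 1 of 10 genes passed between AI-8-45 and AI-7-54, where 5.66% of all genes did. The other 9 genes missed the threshold with differences between -0.13 and 0.20, and without AI-8-45 replicate 3 the count was 2. Leaving Tgfb3 aside, 3 of 9 passed between AI-9-54 and AI-7-54, all higher, beside 14.2% of all genes (6.87% in that direction), and 1 of 9 between AI-9-54 and AI-8-45, beside 1.31%. Median differences over the same genes were 0.05, 0.12 and 0.08, beside medians of 0.0014, -0.0014 and 0.0001 over all genes. The groups did not overlap in 3 of 10, 5 of 9 and 1 of 9 genes in the same order, beside 15.9%, 23.2% and 6.67% of all genes. With so few members chosen with these results known, nothing is read from these shares.

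The rest of the pathway was followed through 4 lists chosen by function, in which 109 of 116 genes were measured. Between AI-9-54 and AI-7-54, 21 were higher and 8 lower (26.6% called; of all genes 6.87% were higher and 7.29% lower), with a median difference of 0.02. Between AI-8-45 and AI-7-54, 7 were higher and 2 lower (8.26%; of all genes 2.13% and 3.53%), and between AI-9-54 and AI-8-45, 4 were higher and 3 lower (6.42%; of all genes 0.708% and 0.6%). These genes averaged 8.322 to 8.415 per array, above the median of all gene means (6.908). With genes below that median left out, limma called 3498, 1688 and 436 genes in the order above, in place of 3139, 1255 and 290. The share called was thus larger in that fit to brighter genes, although its adjustment also covered fewer genes. No excess in the pathway is read from these shares. Of the 35 differences of these genes named below, 13 were over 1.5 times apart between the pairs of replicates, with the same sign in both. The counts, like those over all genes, rested on few arrays. The AI-9-54 against AI-7-54 total of 29 was 17 without AI-7-54 replicate 3, 15 without AI-7-54 replicate 4 and 19 without AI-9-54 replicate 3. All genes gave 2103, 2128 and 2760 in these fits, in place of 3139. The AI-8-45 against AI-7-54 total of 9 was 3 without AI-7-54 replicate 3 or replicate 4 (all genes 540 and 622, in place of 1255). The AI-9-54 against AI-8-45 total of 7 was 3 without AI-8-45 replicate 3, and 4 without AI-8-45 replicate 1, 2 or 4 or AI-9-54 replicate 2, 3 or 4. All genes gave 160 without AI-8-45 replicate 3 and 128 to 184 in the other fits just named, in place of 290.

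Among other ligands and receptors (25 measured), 3 were higher and 2 lower with AI-9-54 than with AI-7-54 (20%, beside 14.2% of all genes). The BMP ligand gene Bmp7 read 10.40 to 10.42 after AI-9-54, 10.79 to 10.92 after AI-8-45 and 10.97 to 11.13 after AI-7-54, a stepwise order opposite to that of Smad7 (AI-9-54 minus AI-7-54 -0.63, limma adjusted p 6.03e-06, and AI-9-54 minus AI-8-45 -0.41, adjusted p 0.000729). The smaller Bmp7 difference between AI-8-45 and AI-7-54 (-0.22) lost its call without AI-7-54 replicate 1 or 4 or AI-8-45 replicate 2 (adjusted p up to 0.0783). Acvr2a, an activin type II receptor gene, was higher than after AI-7-54 both after AI-9-54 (0.63, adjusted p 0.000159) and after AI-8-45 (0.39, adjusted p 0.00937, and 0.052 without AI-7-54 replicate 3). The co-receptor gene Nrp2 (5.67 to 5.84 after both other compounds, a dim range) was higher after AI-9-54, at 6.35 and 6.35 in replicates 1 and 2 and 7.02 and 6.96 in replicates 3 and 4 (0.92 over AI-7-54, adjusted p 0.00129, and 0.89 over AI-8-45, adjusted p 0.00955). By pair of replicates, here and below 1 and 2 before 3 and 4, the Nrp2 differences were 0.65 and 1.21 over AI-7-54 and 0.53 and 1.24 over AI-8-45. Bmpr2 (0.15) and the dim Mstn (-0.15) passed between AI-9-54 and AI-7-54 and lost the call in 2 and 8 of the 11 fits that each omit 1 array (adjusted p up to 0.0815 and 0.155); they were 0.11 and -0.07 in replicates 1 and 2 and 0.18 and -0.22 in replicates 3 and 4.

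Of 17 measured genes of latent TGF-beta storage and activation, 2 were higher and 2 lower with AI-9-54 than with AI-7-54 (23.5%, beside 14.2%). Itgb3, a subunit of an integrin that can release active TGF-beta, read 9.81 to 9.98 after AI-9-54, 9.30 to 9.54 after AI-8-45 and 8.81 to 9.23 after AI-7-54. It was higher with AI-9-54 than with AI-7-54 by 0.97 (limma adjusted p 3.17e-05), with intermediate steps of 0.47 and 0.49 that lost their calls in 2 and 6 of 11 such fits (adjusted p up to 0.073 and 0.0617). The Itgb3 difference between AI-8-45 and AI-7-54 was 0.14 in replicates 1 and 2 (adjusted p 0.626) and 0.67 in replicates 3 and 4 (0.00919), and that between AI-9-54 and AI-7-54 was 0.64 and 1.15 by pair. Lrrc32, which encodes the GARP protein that tethers latent TGF-beta on regulatory T cells, was lower with AI-9-54 than with AI-7-54 by -0.46 (adjusted p 0.000633) and than after AI-8-45 by -0.31 (call lost in 8 of 11, adjusted p up to 0.115). By pair these Lrrc32 differences were -0.66 and -0.33 against AI-7-54 and -0.38 and -0.24 against AI-8-45. Nrros (-0.25), a related tether, and Furin (0.30), a protease that processes the precursor, lost their AI-9-54 against AI-7-54 calls in 3 and 4 of 11 fits (up to 0.111 and 0.0926), and Furin differed by 0.13 in replicates 1 and 2 and by 0.45 in replicates 3 and 4. Itgb1 was lower after AI-8-45 than after AI-7-54 (-0.17), a call lost in 6 of 11 fits (up to 0.157).

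Of 34 measured SMAD regulators and partners (mean 9.70 to 9.80 per array), 32.4% passed between AI-9-54 and AI-7-54, beside 14.2% of all genes. With AI-9-54, 9 were higher and 2 lower than with AI-7-54. Ldlrad4, whose product keeps SMAD2 and SMAD3 from the receptor, was higher by 0.42 (limma adjusted p 0.000319, 0.31 and 0.52 by pair of replicates) and, after AI-8-45, by 0.26 (its call ended on omitting AI-7-54 replicate 3 or 4, adjusted p up to 0.105). Smaller AI-9-54 minus AI-7-54 differences belonged to Usp11 (0.30), the coactivator gene Ep300 (0.22), Strap (-0.21) and Fkbp1a (-0.17), which lost the call in 2, 4, 5 and 3 of 11 fits (adjusted p up to 0.0551, 0.0972, 0.0897 and 0.0809). By pair Ep300 differed by 0.17 and 0.27 and Strap by -0.15 and -0.28. The same held for Ep300 (0.22) and Crebbp (0.18) between AI-8-45 and AI-7-54, in 9 and 7 of 11 fits (up to 0.195 and 0.16), and for Wwp1 (0.21) between AI-9-54 and AI-8-45, in 6 (up to 0.0754). Crebbp and Wwp1 also passed between AI-9-54 and AI-7-54 (0.20, adjusted p 0.0064, and 0.17, adjusted p 0.0177).

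Of 33 measured genes that TGF-beta is known to regulate, 7 were higher and 2 lower with AI-9-54 than with AI-7-54 (27.3%, beside 14.2%). Id2, an inhibitor of E proteins that TGF-beta represses in epithelial cells, read 12.12 to 12.27 after AI-9-54, 11.89 to 12.02 after AI-8-45 and 11.43 to 11.53 after AI-7-54, the same order as Smad7 (0.74 for AI-9-54 and 0.49 for AI-8-45 over AI-7-54, limma adjusted p 3.15e-06 and 0.000194). The AI-9-54 minus AI-8-45 difference of Id2 (0.25) lost its call in 7 of 11 fits (up to 0.0819). Ctla4, which encodes an inhibitory T-cell receptor, was higher by 0.54 after AI-9-54 and 0.53 after AI-8-45, both over AI-7-54 (adjusted p 3e-05 and 0.000125), and Gzmb, the granzyme B gene that TGF-beta represses in cytotoxic T cells, by 1.93 after AI-9-54 over AI-7-54 (adjusted p 0.0159, and 0.0599 on omitting AI-7-54 replicate 1). The AI-9-54 arrays of Gzmb read 6.81 and 6.93 in replicates 1 and 2 and 8.75 and 8.75 in replicates 3 and 4, and the AI-7-54 arrays read 5.63, 6.03 and 5.99, below the array medians. The size of the Gzmb difference is therefore uncertain (1.24 and 2.74 by pair of replicates). Lower with AI-9-54 than with AI-7-54 were Myc, which TGF-beta represses in many cell types (-0.52, adjusted p 0.00573), and the chemokine receptor gene Cxcr4 (-0.43, adjusted p 0.000254). Cxcr4 was also lower than after AI-8-45 (-0.31, adjusted p 0.0144). Myc (-0.44, adjusted p 0.0519) and Gzmb (1.78, adjusted p 0.0816) did not overlap between AI-9-54 and AI-8-45 but missed the threshold.

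**Figure D3:**
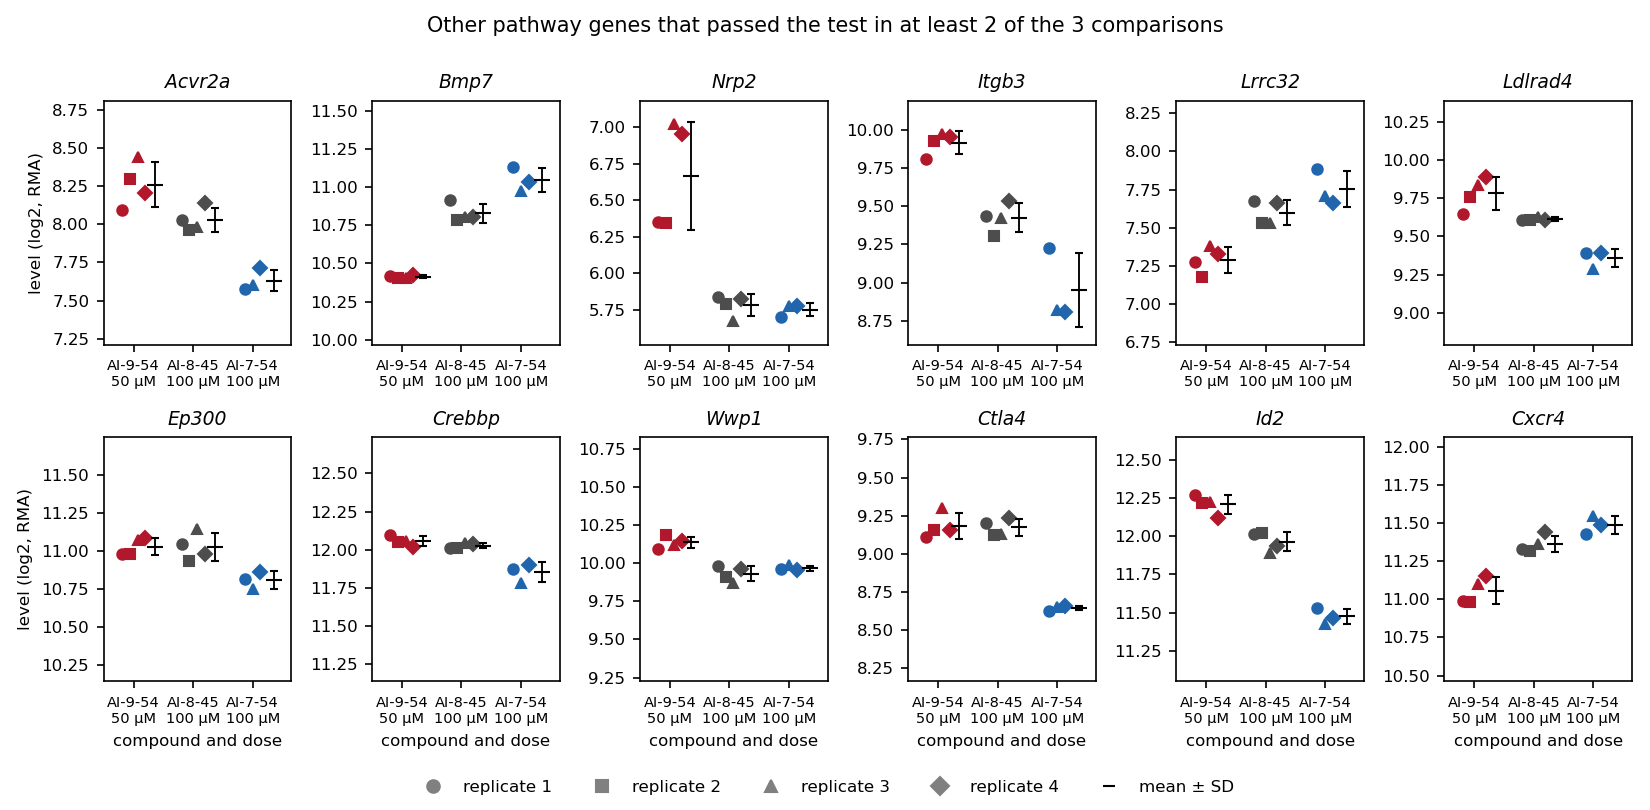
Log2 level (vertical axis, each panel with its own range) on every array of the 12 named pathway genes outside the set that passed the test in at least 2 of the 3 comparisons, by compound and dose. Points are arrays, marked by replicate number, with the mean ± SD beside them; Itgb3 and Id2 step down and Bmp7 steps up from left to right, and the AI-9-54 arrays of Nrp2 split by replicate.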

How the data were processed

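The deposited table holds 1 log2 value per probe set and array. Per the submitters' processing notes, the tools include Partek 6.6 and RMA; the values (3.23 to 13.8) were read as log2 because RMA gives that scale. The build behind the authors' annotation is not given in the sources used here.

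The platform annotation named a single gene for 23521 of the 41345 probe sets and several for 1814, and 16010 were left unnamed. Entrez identifiers gave 23328 probe sets a current symbol from a GRCm38.p6 gene table. Where a gene had several probe sets, the brightest on average stood for it, giving 22180 genes, dim ones included.

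The 3 comparisons came from 1 limma 3.58.1 model in R 4.3.3 (lmFit, contrasts.fit, eBayes) on all 11 arrays (8 residual degrees of freedom), two-sided, with Benjamini-Hochberg adjustment over all genes and a threshold of 0.05. The method was tested on simulated data. Named outside the set are, per list, comparison and direction, at most 3 called genes with the largest difference, and the 5 genes correlating most with Tgfb3. The set, the lists and the alternatives were chosen with earlier results of these data known. The alternatives were 2 other scalings, a filter on dim genes, the mean over probe sets, an intensity trend, weights per array, a block on replicate number, the pair of replicates (1 and 2 against 3 and 4) as a factor or alone, a fit to 2 groups alone, and the omission of each array. The number of arrays limits the precision.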

Additional observations from a re-analysis of the deposited data

Results flagged for a closer look

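In each group of 4 arrays, the highest and the lowest level of each of the 10 genes of the set and the 22 named pathway genes were set against the other 3 by Dixon's ratio. Of 64 such groups, 5 held an array apart from the rest, and chance alone sets apart about 1 in 20. In the set these were Ski after AI-8-45, where replicate 1 read 9.80 and the other arrays 9.76, and Skil after AI-9-54, where replicate 2 read 8.63 and the others 8.53 to 8.54. Outside it they were Bmp7 after AI-8-45 (replicate 1 at 10.92, the others 10.79 to 10.80), Mstn after AI-9-54 (replicate 4 at 4.38, the others 4.5 to 4.53) and Ldlrad4 after AI-8-45 (replicate 3 at 9.63, the others at 9.61). In Ski and Ldlrad4 the array stood apart because the other 3 arrays were nearly equal.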

How the results depend on the processing

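Of the 5 called differences within the set, Smad7 between AI-9-54 and AI-7-54 kept its call under all 22 alternatives (0.81 to 1.02), and no call reversed. Within replicates 1 and 2 the set had 0 calls between AI-8-45 and AI-7-54, 1 between AI-9-54 and AI-7-54 and 0 between AI-9-54 and AI-8-45, where limma called 2, 593 and 6 of all genes and unadjusted p-values under 0.05 numbered 4, 2 and 2 in the set, beside 12.2%, 19.8% and 10.8% of all genes. With 1 array left out the set's counts were 1 to 2, 2 to 4 and 1 to 1, and all genes gave 540 to 1229, 2103 to 3290 and 128 to 257. The 109 other pathway genes gave, in the same order, 0, 9 and 0 calls within replicates 1 and 2 (16, 24 and 14 of 109 unadjusted, near the shares of all genes), and 3 to 9, 15 to 31 and 3 to 7 with 1 array left out. Between AI-8-45 and AI-7-54 they gave 5 calls within replicates 3 and 4, 5 with only the 2 groups and 16 with the pair of replicates as a factor. All genes there gave 613, 1074 and 1949, in place of 1255. Between AI-9-54 and AI-8-45 they gave 4 with only the 2 groups and 13 with the pair as a factor (all genes 141 and 816, in place of 290). With the pair as a factor the calls thus rose over all genes too. With the replicate number as a block the other pathway genes gave 12 calls in place of 7 between AI-9-54 and AI-8-45, and 10 and 32 in the other comparisons. All genes gave 517 in place of 290, and 1408 and 3297 in place of 1255 and 3139. The set's counts stayed at 1, 3 and 1. The numbers do not pair the samples, since 6 of 10 same-numbered pairs of arrays had deviations correlated above 0.1 (r -0.02 to 0.45), as did 9 of 10 pairs of different number within the same replicates.

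Differences that were not called turned sign as follows (of these, Tgfb1 between AI-9-54 and AI-7-54 passed within replicates 3 and 4, at 0.25). Within replicates 3 and 4, AI-8-45 minus AI-7-54 was 0.0469 for Tgfb1, 0.088 for Tgfb3, -0.0149 for Tgfbr2 and 0.0472 for Smad3, and AI-9-54 minus AI-8-45 was 0.0296 for Ski and 0.0323 for Skil. Within replicates 1 and 2, Ski was -0.0294 between AI-8-45 and AI-7-54, and AI-9-54 minus AI-7-54 was -0.1409 for Tgfb1, -0.1392 for Smad3 and -0.0787 for Ski. Quantile normalization gave 0.0057 for Smad3 (AI-8-45 minus AI-7-54) and 0.0003 for Smad2 (AI-9-54 minus AI-7-54), and median centring gave -0.0034 for Smad3 and -0.0038 for Ski (AI-9-54 minus AI-7-54). With 1 array left out, AI-8-45 minus AI-7-54 ran from -0.0644 to 0.0408 for Tgfb1, -0.0909 to 0.001 for Smad3 and -0.0057 to 0.0413 for Ski. AI-9-54 minus AI-7-54 ran from -0.0472 to 0.0448 for Smad3 and -0.0156 to 0.0314 for Ski, and AI-9-54 minus AI-8-45 from -0.0303 to 0.0047 for Ski. The causes were not tested. With 3 or 4 arrays a group, 1 of them deciding some calls, differences near the threshold are uncertain, and the within-replicate fits leave AI-7-54 with 1 array in replicates 1 and 2, taken to vary like the other groups.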
